A study of Mus musculus with 20 samples.

Results

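The mast cell genes described here are 10 genes that mark mast cells, namely the granule proteases *Tpsb2*, *Tpsab1*, *Mcpt4*, *Cma1* and *Cpa3*, the histamine-forming enzyme *Hdc* and the surface receptors *Kit*, *Ms4a2*, *Fcer1a* and *Mrgprb1*. They are 10 of the 54532 genes counted in RNA-seq of the mouse temporomandibular joint (TMJ), and all 10 were found by identifier. The genes were chosen because mast cell genes were higher in the libraries labelled *Loxl2* knockout than in control, so their difference between these groups is given as a description, and counts of members past a threshold are read as support for nothing. The LOXL2 protein is a secreted lysyl oxidase, which crosslinks elastin and collagen fibres.

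All animals carried a floxed *Loxl2* gene and an inducible Cre recombinase driven by the aggrecan (*Acan*) promoter, which is active in cartilage cells. Vehicle was given to the 8 control animals, and tamoxifen to the 12 animals labelled LOXL2_KO at 75 mg/kg for 5 consecutive days with monthly injections afterwards, so that drug and deletion cannot be told apart. Injections began at 6 months of age and the condylar heads, with some bone beneath the cartilage, were taken 4 months later. The study used 4 males and 4 females as controls and 6 males and 6 females in the other group, and the labels do not give the sex of a library. *Loxl2* itself, the targeted gene, averaged 64.5 CPM (counts relative to the scaled library total) ± 30.9 (SD, n = 8) under vehicle. Libraries labelled knockout averaged 101 CPM ± 26.9 (SD, n = 12), with an adjusted p = 0.101 in edgeR's quasi-likelihood test. As the transcript was not lower, the second group is called by its label throughout. By antibody staining of the joint, the study reported less LOXL2 protein in the tamoxifen group, a measure other than RNA. Library totals were 14177222 to 23795467 counts in control and 11153820 to 27045668 counts in the other group.

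Mast cells are tissue-resident immune cells that mature from bone marrow precursors under the growth factor KIT ligand, which binds the receptor KIT. Their granules store tryptases, chymases and carboxypeptidase A3 bound to heparin, together with histamine, which are released when antigen crosslinks IgE on the high-affinity receptor FcεRI or when basic peptides bind receptors of the MRGPR family. In mice the proteases mark connective tissue mast cells, which lie in skin, muscle and joint capsule, and transcription factors that bind GATA sequences act in the promoters of several of these genes.

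The DNA upstream of the members is shown because members that vary together across libraries may be read beside their promoters. The RefSeq table of promoters (GRCm38.p6) held 8 of the 10 members, with *Tpsb2* and *Tpsab1* not among them. In the 250 bases before the start site, the letters GATAA occurred on either strand in 5 of the 8, against 22.6% of 32851 promoters of that length, and a hit on the other strand reads TTATC. The 5 sequences follow, 5′ to 3′ in the direction of the gene, with these letters in capitals. *Mcpt4* lies at chr14:56062311-56062560, *Cma1* at chr14:55944676-55944925, *Cpa3* at chr3:20242182-20242431, *Ms4a2* at chr19:11623720-11623969 and *Fcer1a* at chr1:173227230-173227479, all read from the minus strand.
Mcpt4: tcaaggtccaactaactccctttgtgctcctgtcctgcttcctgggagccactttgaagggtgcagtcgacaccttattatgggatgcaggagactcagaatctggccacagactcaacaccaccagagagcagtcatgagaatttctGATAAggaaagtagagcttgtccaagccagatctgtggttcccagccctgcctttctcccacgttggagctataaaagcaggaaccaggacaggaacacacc
Cma1: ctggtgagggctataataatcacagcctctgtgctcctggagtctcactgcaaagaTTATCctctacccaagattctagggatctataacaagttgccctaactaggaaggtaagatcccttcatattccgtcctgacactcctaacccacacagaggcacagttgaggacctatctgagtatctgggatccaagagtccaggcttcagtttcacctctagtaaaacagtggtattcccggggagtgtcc
Cpa3: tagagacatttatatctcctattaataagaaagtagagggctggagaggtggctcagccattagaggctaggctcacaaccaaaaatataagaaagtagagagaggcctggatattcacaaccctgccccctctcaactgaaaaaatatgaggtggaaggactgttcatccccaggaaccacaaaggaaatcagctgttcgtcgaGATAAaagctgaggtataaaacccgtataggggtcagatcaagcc
Ms4a2: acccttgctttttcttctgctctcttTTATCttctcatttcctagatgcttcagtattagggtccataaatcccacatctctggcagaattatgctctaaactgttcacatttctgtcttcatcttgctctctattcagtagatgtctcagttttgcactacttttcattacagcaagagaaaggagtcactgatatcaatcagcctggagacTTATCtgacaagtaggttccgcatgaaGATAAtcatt
Fcer1a: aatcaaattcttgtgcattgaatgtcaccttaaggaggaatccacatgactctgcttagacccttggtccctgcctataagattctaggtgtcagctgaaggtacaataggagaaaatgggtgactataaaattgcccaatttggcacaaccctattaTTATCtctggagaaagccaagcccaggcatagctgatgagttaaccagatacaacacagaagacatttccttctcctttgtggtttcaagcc

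The letters began 102 bases before the start site in *Mcpt4*, 194 in *Cma1*, 45 in *Cpa3* and 92 in *Fcer1a*. *Ms4a2* held them at 224, 37 and 10 bases before it. The longer run AGATAA, which contains GATAA, was in *Cpa3*, *Ms4a2* and *Fcer1a*, against 9.99% of all promoters. The E-box letters CANNTG were in 5 of the 8 members and in 66.2% of all promoters. *Kit*, *Hdc* and *Mrgprb1* held no GATAA in this window. These are matches of letters, and binding was not measured.

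The tryptase *Tpsb2* (mast cell protease 6, ENSMUSG00000033825, chromosome 17, 25366305 to 25369098, plus strand, GRCm38) was present in every library. Its level was 0.153 CPM at the lowest, 0.957 at the median and 1.81 at the highest in the 8 controls, and 0.574, 8.6 and 54.2 CPM in the 12 libraries labelled knockout. Of those 12, 10 were above the highest control, and replicates 10 and 11 lay within the control range, so that the groups overlapped. The means were 0.999 CPM ± 0.618 (SD, n = 8) and 14.7 CPM ± 16.3 (SD, n = 12), and the fitted log2 fold change was 3.85 (SE 0.77). Behind these values stood 2 to 42 counts a library in control and 7 to 1686 in the other group.

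*Tpsab1* (mast cell protease 7, ENSMUSG00000024173, chromosome 17, 25343245 to 25345562, minus strand) is the neighbouring tryptase gene, protein-coding in GENCODE M21 and a transcribed pseudogene in RefSeq. In control, 5 of 8 libraries had no count and the highest reached 0.165 CPM, from 6 counts in all. The libraries labelled knockout had a median of 1.34 CPM and a highest value of 4.13 CPM, with replicates 10 and 12 at 0. Above the highest control were 9 of 12, and the log2 fold change of 5.11 (SE 1.04) rests on the few control counts. A library at 0 may hold up to the 3 counts that a count of 0 allows, a limit that covers counting error only.

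The chymases lie together on chromosome 14. *Mcpt4* (ENSMUSG00000061068, 56059629 to 56062313, minus strand), the main chymase of connective tissue mast cells, ran from 0.23 through a median of 1.43 to 1.99 CPM in control and from 1.07 through 9.04 to 50.8 CPM in the other group. Replicates 10 and 11 were again the only 2 of 12 within the control range. The log2 fold change was 3.35 (SE 0.68), from means of 1.36 CPM ± 0.597 (SD, n = 8) and 13.9 CPM ± 15.7 (SD, n = 12). *Cma1* (mast cell protease 5, ENSMUSG00000022225, 55941451 to 55944675, minus strand) ran from 0.23 through 0.654 to 2.27 CPM in control and from 0.455 through 5.76 to 38.7 CPM in the other group. For *Cma1* 5 of 12 libraries lay within the control range, namely replicates 3, 5, 10, 11 and 12, and the log2 fold change was 3.3 (SE 0.79). Of the 50-base windows of the transcripts, 5.48% in *Mcpt4* and 5.38% in *Cma1* also occur in another gene (*Cma2* and *Gm48934*), and none in *Tpsb2* or *Tpsab1*. How reads with several positions were counted was not stated, so a small share of the chymase counts is uncertain.

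*Cpa3* (carboxypeptidase A3, ENSMUSG00000001865, chromosome 3, 20215620 to 20242181, minus strand), which trims peptides cut by the chymases, ran from 0 through 0.555 to 1.34 CPM in control. In the libraries labelled knockout it ran from 0.246 through 3.38 to 28.4 CPM, with 8 of 12 above the highest control. The log2 fold change was 3.46 (SE 0.81), from means of 0.566 CPM ± 0.459 (SD, n = 8) and 6.31 CPM ± 8.23 (SD, n = 12).

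**Figure D1:**
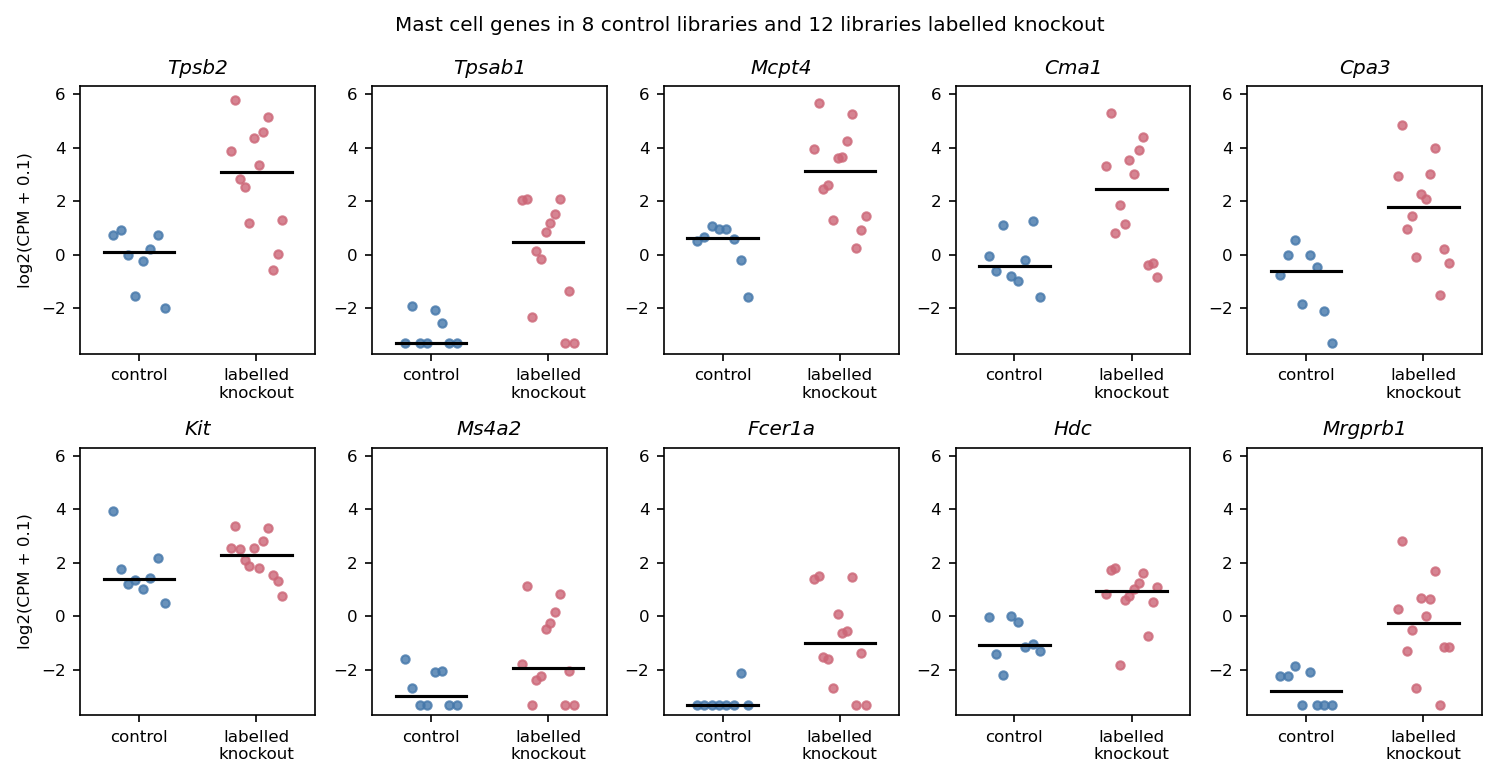
Levels of the 10 mast cell genes in each of 8 control libraries (blue) and 12 libraries labelled knockout (red), as log2(CPM + 0.1); each point is a library and the black line is the group median. The proteases *Tpsb2* and *Mcpt4* had 10 of 12 points above the highest control, while *Kit* had none.

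*Hdc* (ENSMUSG00000027360, chromosome 2, 126593667 to 126619299, minus strand) encodes histidine decarboxylase, the enzyme that makes histamine. Its level was 0.117, 0.367 and 0.894 CPM at the lowest, median and highest in control, and 0.183, 1.8 and 3.34 CPM in the libraries labelled knockout. Replicates 4 and 10, at 0.183 and 0.492 CPM, lay within the control range and the other 10 lay above it. The log2 fold change was 1.9 (SE 0.45), from means of 0.492 CPM ± 0.298 (SD, n = 8) and 1.87 CPM ± 0.988 (SD, n = 12), which was smaller than those of the proteases. The order of libraries also differed, since *Hdc* was highest in replicate 3, at 3.34 CPM, where *Tpsb2* was at 7.07 CPM.

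*Kit* (ENSMUSG00000005672, chromosome 5, 75574916 to 75656722, plus strand), the receptor for KIT ligand, is also expressed by melanocytes and blood progenitors. It was the member that separated the groups least. Control libraries ran from 1.3 through a median of 2.5 to 15.3 CPM and the others from 1.57 through 4.84 to 10.1 CPM, so that no library labelled knockout was above the highest control. The log2 fold change was 0.29 (SE 0.42). The highest value, 15.3 CPM from 407 counts, was control replicate 1, and the next control was at 4.4 CPM. Without that library the log2 fold change was 0.99 (SE 0.33). The same library had the highest summed level of 6 Schwann cell genes among controls, 1790 CPM. Control replicate 5 was next at 1647 CPM, with *Kit* at 1.91 CPM, and the other 6 controls had 36.8 to 310 CPM. The part of other cell types in the *Kit* value was not tested.

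The FcεRI receptor is built of an IgE-binding α chain (*Fcer1a*), a signal-amplifying β chain (*Ms4a2*) and a γ chain (*Fcer1g*) that macrophages and other myeloid cells also use. *Fcer1a* (ENSMUSG00000005339, chromosome 1, 173221284 to 173227214, minus strand) had no count in 7 of 8 controls and 2 counts in the other, against a median of 0.414 CPM and a highest value of 2.7 CPM in the libraries labelled knockout. Over pooled libraries the 2 and 255 counts gave a depth-scaled ratio of 79.3 (95% counting interval 21.7 to 658). Without control replicate 7 the controls had no count, and the lower limit of the 95% counting interval of the ratio was 37.9. *Ms4a2* (ENSMUSG00000024680, chromosome 19, 11615523 to 11623719, minus strand) had 11 counts in all controls and 156 in the other group, a ratio of 8.82 (4.79 to 18), with 5 of 12 libraries above the highest control, 0.225 CPM. The *Ms4a2* ratio was 5.83 without replicate 2 of that group and 16.2 without control replicate 1, which held 6 of the 11 control counts. *Mrgprb1* (ENSMUSG00000070547, chromosome 7, 48444113 to 48456342, minus strand), a relative of the basic peptide receptor gene *Mrgprb2*, had 10 and 416 counts, a ratio of 25.9 (13.9 to 54.3). Its highest control was at 0.175 CPM, its median in the other group at 0.742 CPM and its highest value at 6.94 CPM, in replicate 2. Without that library, which held 216 of the 416 counts, the ratio was 14.1 (7.5 to 29.8). The intervals cover counting error only, and the spread between libraries was wider.

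*Ms4a2*, *Fcer1a* and *Mrgprb1* did not pass the filter on low counts, and the other 7 members did. Of those 7, 6 were past the adjusted threshold of 0.05 and higher in the libraries labelled knockout, and *Kit* was not. Among all 15984 genes tested, 23.0% were past it, and 12.0% were past it and higher. The members were chosen on this contrast, and the 6 past the threshold could pass the filter only through the group where they are high. Nothing is therefore read from their count. In tissue RNA, more mast cells and more of these transcripts per mast cell cannot be told apart.

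Per kilobase of transcript, which allows genes to be compared, *Mcpt4* had the highest median level in both groups among the proteases, 1.29 CPM per kilobase in control and 8.16 in the libraries labelled knockout. *Tpsb2* and *Cma1* followed with 0.6 each in control and 5.4 and 5.29 in the other group, then *Cpa3* with 0.366 and 2.23. Of the non-proteases, the median level per kilobase in the libraries labelled knockout was 0.543 for *Kit*, 0.414 for *Fcer1a*, 0.281 for *Hdc*, 0.177 for *Mrgprb1* and 0.0581 for *Ms4a2*. The spread over libraries was wider than the steps between *Tpsb2* and *Cma1* and between *Kit* and *Fcer1a*.

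The sum of *Tpsb2*, *Mcpt4*, *Cma1* and *Cpa3*, the 4 proteases with counts in nearly every library, shows how uneven the second group was. Controls ran from 0.612 CPM (replicate 8) to 6.25 CPM (replicate 3), with a median of 4.06 CPM. The libraries labelled knockout had a median of 26.3 CPM, and the highest were replicate 2 at 172 CPM, replicate 9 at 110 CPM and replicate 8 at 65.8 CPM. Replicates 10, 11 and 12, at 2.54, 4.47 and 6.07 CPM, lay within the control range and the other 9 lay above it. Replicates 2 and 9 alone held 50.4% of the group's summed *Tpsb2* level, 53.2% of *Mcpt4* and 60.3% of *Mrgprb1*, but 27.6% of *Hdc*. Replicate 9 also held 3044 CPM of 6 salivary gland genes, against 29.9 to 103 CPM in the other 19 libraries, and the part of that tissue in the protease level was not tested. Without replicate 2 the log2 fold change of *Tpsb2* was 3.45 and that of *Cpa3* 2.91.

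**Figure D2:**
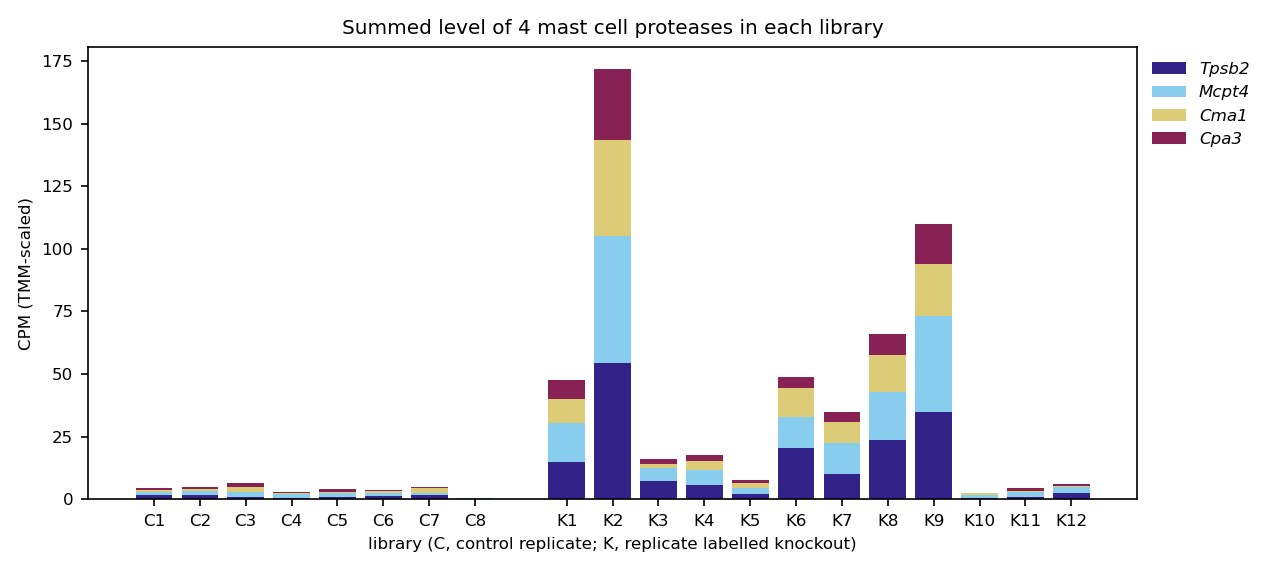
Summed level of 4 mast cell proteases in each library, as stacked CPM with TMM-scaled library sizes; C is a control replicate and K a replicate labelled knockout. Controls sit at or below 6.25 CPM, K2 reaches 172 CPM, and K10, K11 and K12 are within the control range.

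While the summed level varied widely, the makeup of the protease transcripts varied less. As a share of the counts of the 4 genes, *Mcpt4* had a median of 34.1% in control (16.4% to 67.4%) and 33.6% in the libraries labelled knockout (24.9% to 42.5%). *Tpsb2* had medians of 26.1% and 31.6%, *Cma1* 20.2% and 21.6%, and *Cpa3* 13.9% and 12.1%. The ranges of both groups overlapped for every one of the 4 genes. The control shares rest on 8 to 113 counts a library and are therefore wide, against 31 to 5354 counts in the other group. Among the deep libraries some differences exceeded counting error. The *Tpsb2* share was 44.5% in replicate 3 (95% Wilson interval 39.2% to 50%) and 31.5% in replicate 2 (30.3% to 32.7%), and *Cma1* was at 10.3% in replicate 3 (7.46% to 14.2%) and 22.5% in replicate 2 (21.4% to 23.6%).

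**Figure D3:**
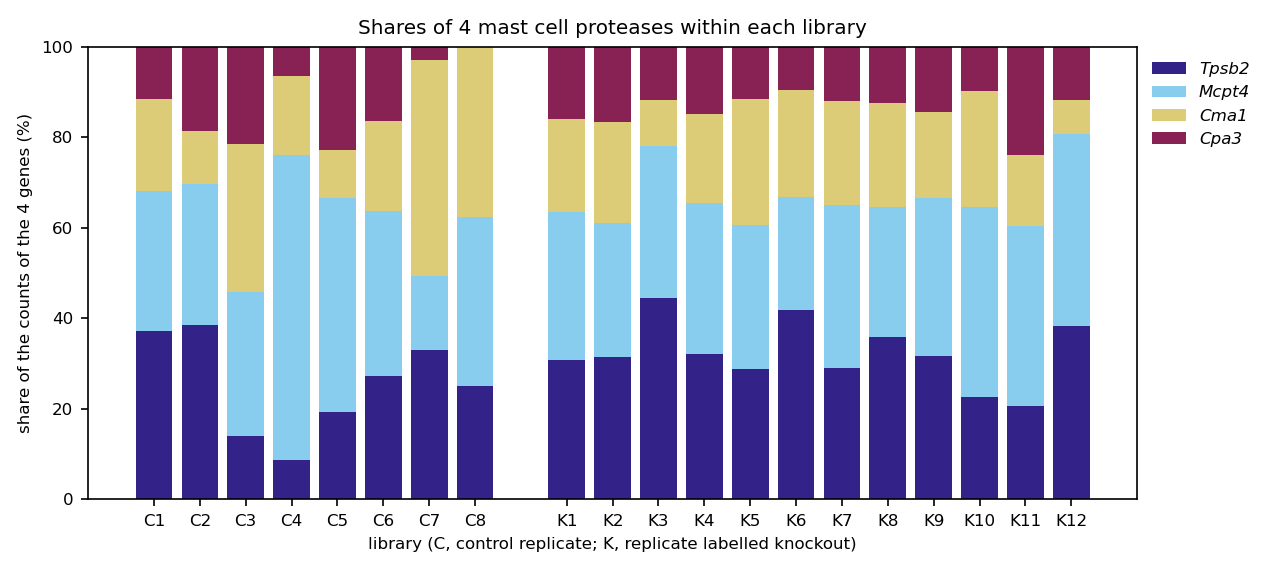
Share of each of 4 proteases in their summed counts, in percent, in each control (C) and each replicate labelled knockout (K). The median *Mcpt4* share is 34.1% in control and 33.6% in the other group, and control bars scatter more, on 8 to 113 counts each.

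Across the 12 libraries labelled knockout, the members were compared with *Tpsb2* on the log2 scale, in a family of 24 relations that also held 15 lists of other cell types. *Mcpt4* (Pearson r = 0.982, Spearman rho = 0.972), *Cpa3* (0.959 and 0.958) and *Cma1* (0.942 and 0.93) followed *Tpsb2* most closely, each with a permutation p of 0.00016 for r after Benjamini-Hochberg adjustment. *Mrgprb1* (r = 0.917), *Kit* (0.862), *Fcer1a* (0.86), *Tpsab1* (0.831) and *Ms4a2* (0.82) passed as well, with adjusted permutation p from 0.00048 to 0.00474. Without replicates 10 and 11, the libraries farthest from the median of *Tpsb2*, these r were 0.771 (*Tpsab1*) to 0.978 (*Mcpt4*). Of the 12 libraries, 3 had no count of *Ms4a2*, 2 none of *Fcer1a*, 2 none of *Tpsab1* and 1 none of *Mrgprb1*. The r of these 4 genes thus rest partly on values at the floor. *Kit* therefore followed the proteases within the group although it separated the groups little. *Hdc* was the weakest, with r = 0.523 (adjusted permutation p = 0.17), rho = 0.671 (adjusted permutation p = 0.049) and r = 0.39 without those 2 libraries. All values of a library share its RNA and its depth.

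**Figure D4:**
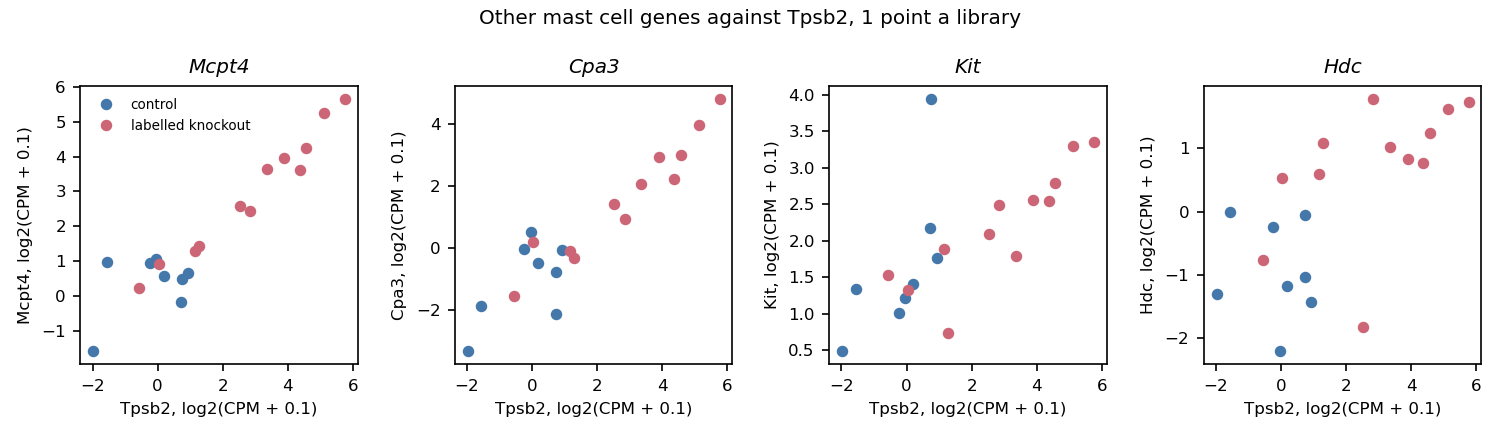
Levels of *Mcpt4*, *Cpa3*, *Kit* and *Hdc* against *Tpsb2*, as log2(CPM + 0.1), with control libraries in blue and libraries labelled knockout in red. Among the libraries labelled knockout, *Mcpt4* and *Cpa3* rise along a line with *Tpsb2*, *Kit* also rises with it, and *Hdc* scatters. The controls scatter more, and their relation was not tested. Control replicate 4 had 0.238 CPM of *Tpsb2* and 1.85 CPM of *Mcpt4*, and control replicate 7 had 1.55 and 0.777 CPM. *Kit* was highest in control replicate 1.

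Of 68 other genes of mast cell biology, listed by role, 46 were tested and 20 passed edgeR's adjusted threshold, against 23.0% of all genes tested. Of these, 19 were higher, against 12.0% of all genes, and *Hnmt* was lower, with a median log2 fold change of 0.71 over the 46, against −0.02 over all genes tested. Many of these genes are shared with macrophages, osteoclasts or platelets, and the sets were compiled with earlier results of these data known. Of the 20, *Lat*, *Btk*, *Il1rl1*, *Hpgds*, *Alox5* and *Cysltr2* had low counts in some controls. They passed the filter only through the group where they are high, so nothing is read from their calls or from the count of 20.

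Receptors and signalling held 10 of the 20 calls, with 10 of 14 tested genes higher, against 12.0% of all genes. None was called lower, and the median log2 fold change was 1.19. Of the 10, *Lat*, *Btk* and *Il1rl1* passed the filter only through the group where they are high. Nothing is therefore read from the count of 10 or from the calls of these genes. The γ chain *Fcer1g* averaged 6.31 CPM ± 2.24 (SD, n = 8) under vehicle, against 19.9 CPM ± 7.7 (SD, n = 12) with the knockout label, where 11 libraries exceeded the highest control (log2 fold change 1.66, SE 0.26, adjusted p = 0.00104). The adaptors *Lat* (2.1, SE 0.4, adjusted p = 0.00203) and *Lat2* (1.46, SE 0.28, adjusted p = 0.00206), which relay signals from the receptor, rose too. So did the kinases *Lyn* (log2 fold change 0.69, adjusted p = 0.00203), *Syk* (1.03, 0.0142) and *Btk* (1.44, 0.00301). The shared cytokine receptor chains *Csf2rb* and *Csf2rb2* rose by 1.46 and 1.17, with adjusted p of 0.00203 and 0.00318. *Il1rl1*, the receptor for the alarmin IL-33, rose by 1.52 (adjusted p = 0.0482) and the complement receptor *C5ar1* by 1.02 (adjusted p = 0.0496), and both lost the call when single libraries were left out, in 15 and 13 of 20 fits. *Plcg2* (0.71, adjusted p = 0.0574) and *C3ar1* (1.14, adjusted p = 0.059) did not pass.

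Granule storage and secretion genes had 5 of 10 higher, against 12.0% of all genes, and a median log2 fold change of 0.44. *Cd63*, a granule and lysosome membrane protein used to detect degranulation, averaged 159 CPM ± 26.5 (SD, n = 8) under vehicle, against 282 CPM ± 64 (SD, n = 12). Its log2 fold change was 0.83 (SE 0.14, adjusted p = 0.00123). *Srgn*, the proteoglycan core that carries heparin, rose by 0.42 (adjusted p = 0.0192), *Ndst2*, which sulfates heparin, by 0.47 (0.0218), *Rab27b* by 0.86 (0.0224) and *Stxbp2* by 1.12 (0.0237), the last 2 acting in granule fusion. *Slc18a2*, which loads histamine into granules, was at −0.12 (SE 0.19, adjusted p = 0.664), and *Tph1*, which makes serotonin, at 1.25 (SE 0.61, adjusted p = 0.143). *Hdc* and *Slc18a2*, successive steps of histamine handling, thus had log2 fold changes of 1.9 and −0.12.

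Of 5 lineage genes tested, 1 passed, against 23.0% of all genes tested. *Gata2* (log2 fold change −0.13, adjusted p = 0.571), *Mitf* (−0.14, 0.432) and *Tal1* (−0.18, 0.555), transcription factors of mast cells and of other lineages, did not pass, and *Lmo4*, a cofactor of many cell types, rose by 0.29 (adjusted p = 0.0261). *Kitl*, which encodes KIT ligand, averaged 33.3 CPM ± 6.83 (SD, n = 8) under vehicle, against 27.2 CPM ± 5 (SD, n = 12), with log2 fold change −0.29 (adjusted p = 0.0972). Of 12 libraries labelled knockout, 11 were below its control median.

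Of the eicosanoid enzymes, 2 of 6 rose, against 12.0% of all genes. They were *Hpgds*, the prostaglandin D synthase of mast cells (1.1, SE 0.34, adjusted p = 0.025), and *Alox5*, which starts leukotriene synthesis (1.22, SE 0.42, adjusted p = 0.0382). Both passed the filter only through the group where they are high, so nothing is read from these 2 calls. *Alox5* lost the call in 7 of 20 fits that left out a library. On the responding side, the leukotriene receptor gene *Cysltr2* rose by 1.75 (SE 0.52, adjusted p = 0.0205). It had 1 to 14 counts a library in control and passed the filter only through the other group. *Hnmt*, which inactivates histamine, fell by 0.69 on the log2 scale (SE 0.2, adjusted p = 0.0192). It averaged 7.3 CPM ± 2.89 (SD, n = 8) under vehicle, against 4.52 CPM ± 1.07 (SD, n = 12). It lost this call in 5 of 9 alternatives, which were library totals as scaling, the replicate block, the same 16 libraries without it and both covariates, and in the fit without control replicate 8. The histamine receptor genes *Hrh1* (0.71, adjusted p = 0.255) and *Hrh2* (−0.45, adjusted p = 0.434) did not pass. None of the 4 cytokine genes tested passed at the adjusted threshold in edgeR, against 23.0% of all genes tested. Among the 4 were *Il4* (−0.58, adjusted p = 0.114) and *Il33* (0.28, adjusted p = 0.346).

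**Figure D5:**
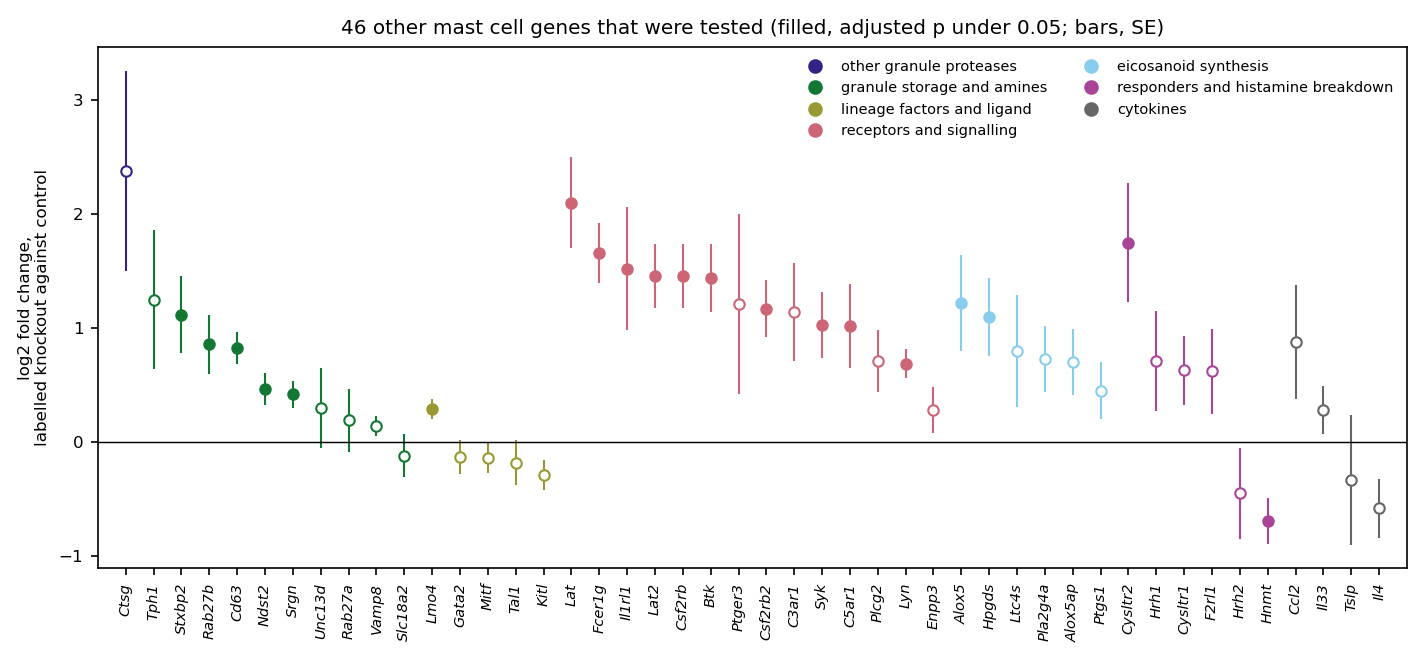
Log2 fold change, libraries labelled knockout against control, of the 46 other mast cell genes tested, grouped by role; bars are the SE and filled points passed the adjusted threshold of 0.05. Receptors and signalling hold 10 of the 20 filled points, and *Hnmt* is the filled point below 0.

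Of 9 other granule proteases, 8 did not pass edgeR's filter on low counts. *Tpsg1*, the membrane-anchored tryptase, had 6 counts in all controls and 157 in the other group, and was highest in replicate 9, at 2.39 CPM. It passed in edgeR without the filter (adjusted p = 0.0467) and in DESeq2 (adjusted p = 0.011). *Ctsg*, cathepsin G, which neutrophil precursors also make, passed the filter but not the test (log2 fold change 2.38, SE 0.88, adjusted p = 0.0551). The mucosal mast cell proteases *Mcpt1* and *Mcpt2* had 3 and 4 counts in the 12 libraries labelled knockout and 0 in the controls. The basophil genes *Mcpt8* and *Prss34* had 31 and 79 counts in those 12 libraries, against 5 and 4 in control. *Prss34* passed in DESeq2 (adjusted p = 0.034) but not in edgeR without the filter (adjusted p = 0.0699), and *Mcpt8* did not pass there (adjusted p = 0.365). Both were highest in replicate 3, the library where *Hdc* was highest too. That library also had the highest summed level of 8 neutrophil genes, 880 CPM where the next had 447 CPM, and of 5 eosinophil genes, 5.28 CPM. Of further mast cell receptors, *Mrgprb2* had 9 and 133 counts (adjusted p = 0.0889 in edgeR without the filter and 0.0412 in DESeq2) and *Adora3* 1 and 54 (adjusted p = 0.0161 in edgeR without the filter, and none given by DESeq2).

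Genes of other cell types moved with the same groups. All 9 osteoclast genes rose, with a median log2 fold change of 2.72, and their summed level ran from 116 to 1395 CPM in control and from 597 to 7923 CPM in the libraries labelled knockout. Replicate 2 was the highest for them as for the proteases. Of 9 osteoblast and osteocyte genes 4 rose (*Bglap*, *Sp7*, *Dmp1* and *Phex*), with summed levels of 178 to 1848 CPM in control and 301 to 3896 CPM in the other group. Of 8 macrophage genes 6 rose, with summed levels of 48.2 to 228 CPM and 143 to 535 CPM. Of 8 fibroblast and synovium genes 4 rose, with 2222 to 14291 CPM and 9843 to 38726 CPM, and 3 of 8 skeletal muscle genes fell, with 32517 to 143959 CPM and 24930 to 67917 CPM. The eosinophil genes *Epx*, *Prg2*, *Siglecf* and *Ear6* were too low to test, and *Ccr3* rose by 2.49 (adjusted p = 0.0179). *Ccr3* had 28 counts in all controls, with 3 controls at 0. Like *Calcr*, *Ocstamp*, *Dcstamp* and *Oscar* of the osteoclast list, it passed the filter only through the group where it is high. Of 8 neutrophil genes 1 rose (*Mpo*, which passed the filter in the same way), with a median log2 fold change of 2.16 over the 8. Of 6 chondrocyte genes tested 1 rose, and of 3 salivary gland genes tested 1 rose. The neutrophil and chondrocyte counts are near the share of all genes called higher. The summed salivary gland level had a median of 45.8 CPM in the libraries labelled knockout, against 87 CPM in control. Only replicate 9 of the former, at 3044 CPM, was above the highest control. No B cell, erythroid, endothelial, adipocyte or Schwann cell gene passed the adjusted threshold in edgeR, and no T or NK cell gene was high enough to test.

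Within the 12 libraries labelled knockout, the osteoclast list followed *Tpsb2* with r = 0.674 (adjusted permutation p = 0.0453) and rho = 0.72 (adjusted permutation p = 0.03), and r = 0.893 without replicates 10 and 11. The eosinophil list had r = 0.716 (adjusted permutation p = 0.0278) and rho = 0.636 (adjusted permutation p = 0.0575), with r = 0.618 without those libraries. Most of its low summed level is *Ccr3*, a mean of 1.26 CPM in the libraries labelled knockout and highest in replicate 2. *Prg2* and *Epx* averaged 0.539 and 0.108 CPM there, so these values say little about eosinophils. The fibroblast and synovium list had r = 0.542 (adjusted permutation p = 0.154), which became 0.942 without replicates 10 and 11. Most of the summed level of that list is *Col1a1*, a mean of 18300 CPM in the libraries labelled knockout, which osteoblasts also make. Of its other genes *Dcn*, *Prg4*, *Pi16* and *Dpt* did not pass. The osteoblast and osteocyte list had r = 0.434 (adjusted permutation p = 0.232) and rho = 0.636 (adjusted permutation p = 0.0575), with r = 0.813 without replicates 10 and 11. Other lists went the other way and did not pass, namely skeletal muscle (r = −0.429), endothelial (−0.428) and adipocyte (−0.258). Their r became −0.81, −0.811 and −0.712 without replicates 10 and 11. Replicate 10, the lowest of the group for *Tpsb2*, had 3247 CPM of osteoclast and 29506 CPM of fibroblast genes, beside 2.54 CPM of the 4 proteases. With the osteoclast list as a covariate, the log2 fold changes were 0.46 (SE 0.84) for *Tpsb2*, 0.62 (SE 0.84) for *Mcpt4*, 0.13 (SE 0.97) for *Cma1* and 0.06 (SE 0.83) for *Cpa3*. None of the 7 members tested and none of all 15984 genes remained past the adjusted threshold in that edgeR fit, with 2 of the 7 and 1292 of all genes at an unadjusted p under 0.05. Of the variance of that covariate, 59.2% lay between the groups.

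Apart from the named lists, the protein-coding genes most like the members were sought among 13263 genes. For each gene, its log2 levels centred on their group means were correlated over the 20 libraries with the mean of the 7 tested members. The 10 highest were *Lnx2* (r = 0.862), *Spon1* (0.844), *Ptpn18* (0.831), *Adam11* (0.799), *Mov10* (0.799), *Inhbb* (0.798), *Tor2a* (0.792), *St8sia2* (0.791), *Rcan3* (0.789) and *Csf1* (0.787). None of them belongs to any of the lists. By the same measure the members themselves had r from 0.514 (*Hdc*) and 0.759 (*Kit*) to 0.952 (*Tpsb2*) and 0.953 (*Mcpt4*), values that include each member in the mean. *Csf1*, the macrophage growth factor, averaged 33.4 CPM ± 9.99 (SD, n = 8) under vehicle, against 74.2 CPM ± 21.8 (SD, n = 12), and *Spon1*, a matrix protein, 30.4 CPM ± 17 (SD, n = 8) against 75.7 CPM ± 53.2 (SD, n = 12). These likenesses are a description over libraries that share depth and tissue makeup.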

How the data were processed

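Total RNA of condylar heads was sequenced as paired-end reads in 8 control libraries and 12 libraries labelled knockout, grouped by sample titles. The authors deposited raw counts per Ensembl gene, made with featureCounts (1.5.0-p3) on mm10 per the submitters' processing notes; strand use and the treatment of reads with several positions were not given in the sources used here. Symbols and coordinates came from GENCODE M21 (GRCm38, the same build). Nothing says whether libraries of a group share a litter or preparation day, so p-values measure the spread between these animals' libraries.

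Counts were tested with edgeR 4.0.16 in R 4.3.3 (filterByExpr, TMM, quasi-likelihood F-test, two-sided, Benjamini-Hochberg adjustment over 15984 genes, threshold 0.05). CPM values use TMM-scaled totals, and log2 CPM values a prior count of 2. Relations used 100000 permutations (scipy 1.17.1). The procedure was tested on simulated counts. DESeq2 1.42.0, other scalings and filters, the replicate number as a block, osteoclast or muscle lists as covariates, and omission of each library were alternatives. The study tested with DESeq2.

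The members and lists were chosen with earlier results of these data known. Named genes are all 10 members, every other mast cell gene past the threshold, those whose role a sentence needs, and the 10 non-members with the most similar pattern (mean of at least 1 CPM).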

Additional observations from a re-analysis of the deposited data

Results flagged for a closer look

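In each of 56 mast cell genes, the 8 control libraries were searched for a value far from the others, which chance gives in about 1 of 20 groups, and 5 were found. Control replicate 8 was low for 3 genes. This library also had the highest summed skeletal muscle level of all 20, 143959 CPM, and the lowest of the osteoclast (116 CPM), osteoblast and osteocyte (178 CPM), macrophage (48.2 CPM), fibroblast and synovium (2222 CPM) and chondrocyte (41.6 CPM) lists, whose part in these values was not tested. It had 0.23 CPM of *Mcpt4* from 3 counts, where the other 7 controls had 0.777 to 1.99 CPM. It had 0.612 CPM of *C3ar1*, against 2.55 to 5.72 CPM, and 0.766 CPM of *Il4*, against 1.66 to 2.97 CPM. *Fcer1a* was at 0.129 CPM in control replicate 7, from 2 counts, and at 0 in the other 7. *Syk* was at 29.9 CPM in control replicate 5, against 7.45 to 11.4 CPM in the others.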

How the results depend on the processing

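Counts of calls were within 1.5 times the main ones with DESeq2 size factors or library totals as scaling, without a filter on low counts and with a minimum of 1 CPM. For all genes, the 3673 calls became 1786 with the replicate number as a block in 16 libraries (3280 in these libraries without the block), 1705 with the skeletal muscle list as covariate and 0 with the osteoclast list. For the members, 6 of 7 became 0 with the osteoclast list (2 at an unadjusted p under 0.05), and for the other mast cell genes, 20 became 13 with the replicate block, 9 with muscle, 0 with osteoclast (5 at an unadjusted p under 0.05) and 27 of 52 in DESeq2. In DESeq2 9 of 10 members passed, all but *Kit*, against 22.5% of all genes, and without a filter 8 of 10, all but *Kit* and *Ms4a2*. Nothing is read from these counts. *Hdc* lost the threshold with the block and *Cma1* with muscle. *Kit* reversed with the osteoclast list, to −0.91 (SE 0.64), and the other log2 fold changes became 0.46 for *Tpsb2*, 0.62 for *Mcpt4*, 0.13 for *Cma1*, 0.06 for *Cpa3*, 1.44 for *Hdc* and 2.88 for *Tpsab1*. The cause was not tested. Library totals alone moved the median of all genes to 0.12 and the calls to 2188 higher and 849 lower, against 1918 and 1755.

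Correlations gave no sign that replicate numbers pair the libraries, and cannot show whether libraries share a litter or preparation day. Deviations of the 8 same-numbered pairs correlated from −0.36 to 0.168, 2 were over 0.1, and no control correlated best with its own number.

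Leaving out each library gave 2551 to 4181 calls for all genes, 5 to 8 for members and 14 to 22 for the other mast cell genes, the lowest of the first and last without control replicate 8. The 5 came from *Tpsab1* failing the filter, and the 8, without control replicate 1, from *Kit* and *Mrgprb1*. Log2 fold changes ranged from 3.45 to 4.03 for *Tpsb2*, 2.95 to 3.46 for *Mcpt4*, 2.82 to 3.61 for *Cma1*, 2.91 to 3.77 for *Cpa3*, 4.86 to 5.76 for *Tpsab1* in 12 fits, 1.75 to 2.08 for *Hdc* and 0.15 to 0.99 for *Kit*. Pooled ratios without single libraries were chosen after seeing the data. Depth limits *Fcer1a*, *Ms4a2*, *Mrgprb1* and *Tpsab1*, whose controls hold 2, 11, 10 and 6 counts in all.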
